A study of Mus musculus with 8 samples.

Results

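The glucocorticoid receptor, its activating enzyme and 8 of its classic target genes were followed in primary mouse embryonic fibroblasts with and without cryptochromes. The members were all probe sets annotated to 1 of 10 genes alone: Nr3c1 (the receptor), Hsd11b1 (the enzyme that makes active hormone inside cells), Fkbp5, Tsc22d3, Sgk1, Klf9, Zbtb16, Errfi1, Mt1 and Mt2. The table of 30506 probe sets held 23 such probe sets, of 9 of the 10 genes, and the signal of Hsd11b1 was not analysed here. Total RNA of 8 cultures was measured on an Affymetrix expression array, 1 array per culture. There were 4 Cry DKO lines, with the genotype Cry1-/- and Cry2-/-, and 4 wild-type (WT) lines. The lines were independent, came from embryos of a near-C57BL/6J background (more than 7 backcrosses from BL6/129 mice) and grew asynchronously in medium with 10% serum at 3% oxygen. No treatment was given, so no hormone was added, and the hormone in the serum was not measured. Values are log2 signals, and differences are Cry DKO minus WT on that scale, so a difference of 1 is a doubling of signal.

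The glucocorticoid receptor is a nuclear receptor that waits in the cytoplasm with HSP90 chaperones and, once a glucocorticoid binds it, enters the nucleus and switches genes on or off. Cryptochromes, best known as repressors of the circadian clock, can also bind this receptor and oppose its activation of genes. Its classic targets in many cell types include Fkbp5, a co-chaperone that lowers hormone binding and so feeds back on the receptor, and Tsc22d3, whose product GILZ carries part of the anti-inflammatory action of glucocorticoids.

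Array medians lay between 6.78 and 6.79, and the number of arrays limits the precision. Cry1 was not lowered past the test in Cry DKO lines (difference -0.50, SE 0.21, adjusted p = 0.181 by limma), nor was Cry2 (-0.34, SE 0.13, adjusted p = 0.143 by limma), and lines of both genotypes overlapped. The labels do not say where these probes lie relative to the deleted parts, so the genotypes were not checked by them. Fibroblast markers were bright, with 8 of 10 above the floor described next, but Pdgfra averaged 5.38 in Cry DKO and 5.63 in WT lines, and Dcn 5.33 in Cry DKO and 5.84 in WT lines, both under it. All 8 tested fibroblast markers had negative differences, with a median of -0.07 against -0.01 over all tested genes, and none passed in limma. Their list summed to a linear signal of 69181 to 77125 in Cry DKO lines and 75793 to 84014 in WT lines. Macrophage markers stood higher in Cry DKO lines: 10 of 17 tested rose and none fell in limma, and their summed linear signal was 11365 to 20691 in Cry DKO lines and 6973.5 to 10417 in WT lines. All 17 lay above the floor by their mean over the 8 arrays, but 1 of the 10, Trem2, averaged 6.75 in Cry DKO and 5.43 in WT lines, so it passed the floor only through the Cry DKO lines. The count of 10 was 3 to 14 when 1 line was left out: 3 without WT replicate 2, 4 without WT replicate 3 or Cry DKO replicate 2, 6 without WT replicate 1, and 7 to 14 without another line. With RNA from whole cultures, more cells of a type and more RNA per cell cannot be told apart.

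A floor was set at the 40th percentile of mean signal, 6.05, and probe sets at or above it were tested together with limma, a moderated linear model, with Benjamini-Hochberg adjustment over all 16347 probe sets. Of the 23 member probe sets 18 lay above the floor, and 5 lay under it. An adjusted p of 0.05 was the threshold. Of the 18 tested, 2 were called higher in Cry DKO lines, both of Tsc22d3, against 3.67% of all tested probe sets. None was called lower, against 3.14% of all. An unadjusted p under 0.05 was found for 4 of the 18, 2 in each direction, against 23.2% of all tested probe sets. The median difference was 0.04 over the 18 and -0.01 over all tested probe sets. The genotypes did not overlap for 4 of the 18, against 15.4% of all tested probe sets.

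**Figure D1:**
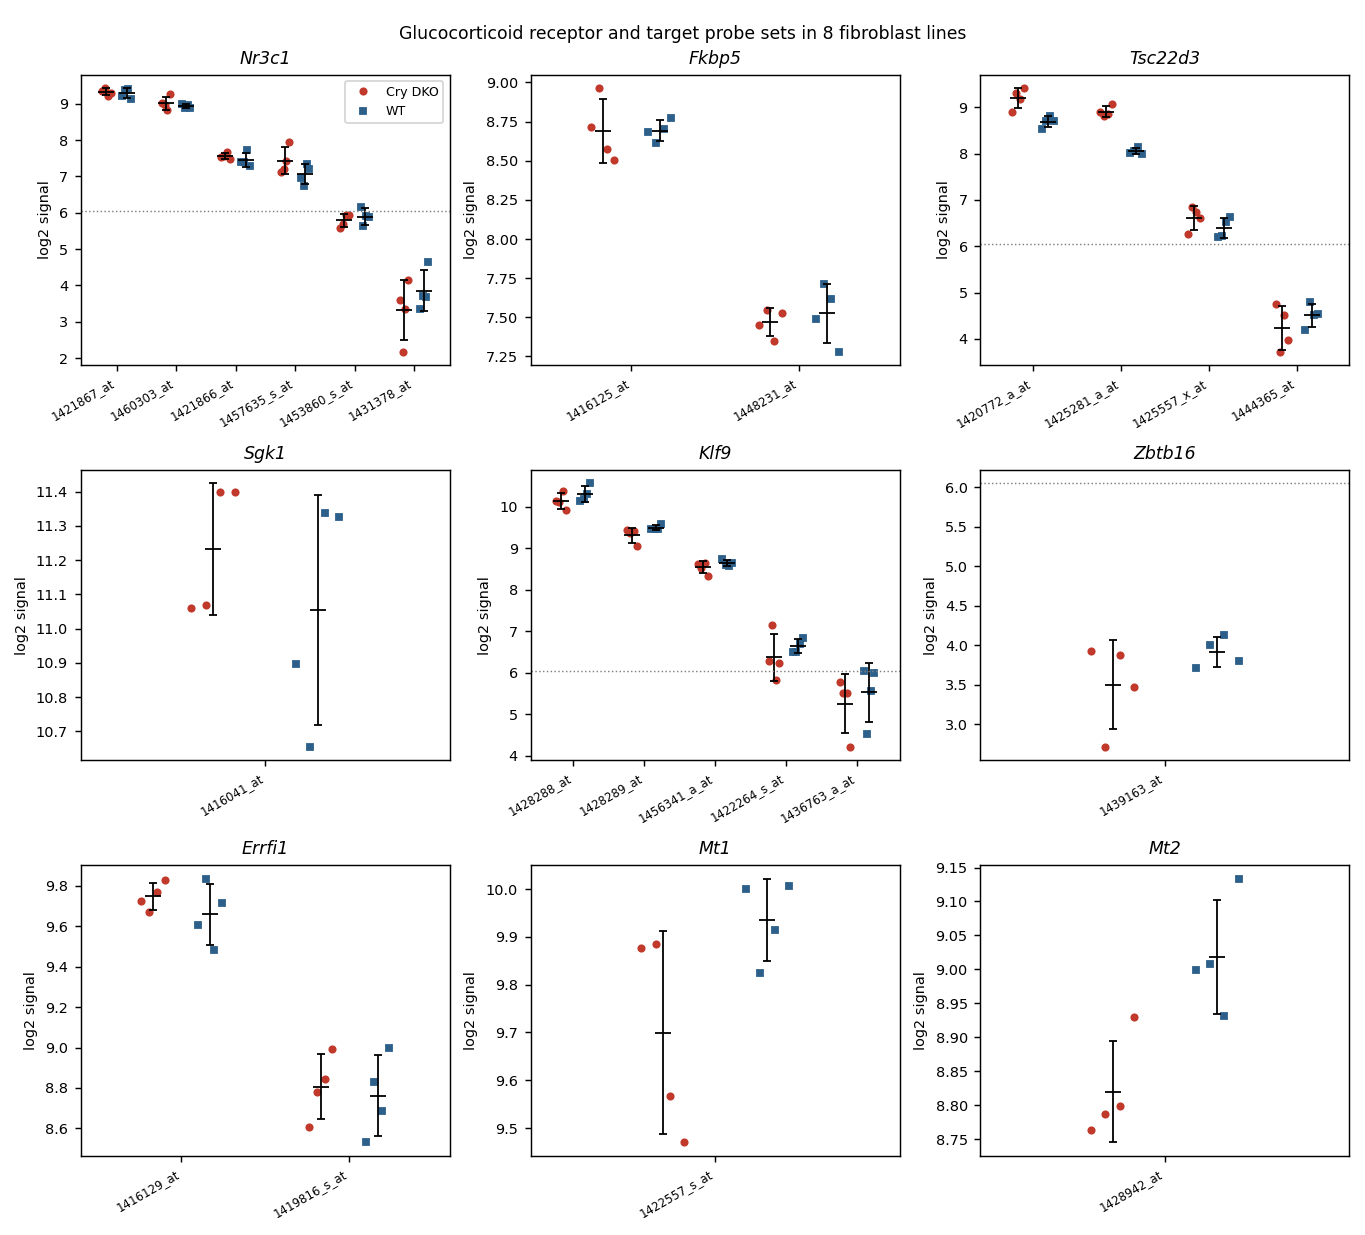
Log2 signal of the 23 member probe sets, 1 panel per gene, in Cry DKO lines (circles, left of each pair) and WT lines (squares, right). Bars are mean ± SD over 4 lines, each panel has its own vertical axis, and the dotted line is the floor of 6.05 where a panel reaches it. The genotypes are far apart for the Tsc22d3 probe set 1425281_a_at, with 8.80 to 9.07 in Cry DKO and 7.998 to 8.14 in WT lines.

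Promoter windows of 300 bases ran from 250 before to 50 after an annotated start in RefSeq on build GRCm38.p6. Matched by symbol, 8 of the 10 genes, Hsd11b1 among them but not Nr3c1 or Zbtb16, gave 16 windows. They were searched on both strands for the full glucocorticoid response element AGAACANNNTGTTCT, its half-site AGAACA (which also lies inside the full element), the E-box CACGTG bound by CLOCK and ARNTL, and the core of the metal response element bound by MTF1, as TGCACNC or TGCGCNC. The full element was found in 1 of 6 windows of Sgk1 and in 3 of all 32851 windows (0.00913%). That Sgk1 window is shown first because it holds the full element. It also holds an E-box, and capitals mark the full element, the half-sites and the E-box. Its upstream half-site overlaps the E-box. The second sequence is the only Tsc22d3 window of 3 with any of these motifs, a half-site in capitals, which 19.0% of all windows hold. The last pair are the Mt1 and Mt2 windows, with metal response cores in capitals.
Sgk1, chr10:21993640-21993939, plus strand: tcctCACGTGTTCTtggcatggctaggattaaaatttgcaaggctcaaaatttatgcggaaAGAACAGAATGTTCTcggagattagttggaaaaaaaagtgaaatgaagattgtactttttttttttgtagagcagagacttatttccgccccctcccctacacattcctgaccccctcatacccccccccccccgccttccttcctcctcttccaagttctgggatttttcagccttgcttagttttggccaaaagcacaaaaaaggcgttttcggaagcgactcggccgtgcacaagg
Tsc22d3, chrX:140600473-140600772, minus strand: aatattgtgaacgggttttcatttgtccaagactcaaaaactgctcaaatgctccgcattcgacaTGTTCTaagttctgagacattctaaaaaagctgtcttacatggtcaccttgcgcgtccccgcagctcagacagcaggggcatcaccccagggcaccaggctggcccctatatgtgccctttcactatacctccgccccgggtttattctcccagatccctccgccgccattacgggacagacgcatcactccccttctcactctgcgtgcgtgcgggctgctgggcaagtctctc
Mt1, chr8:94178839-94179138, plus strand: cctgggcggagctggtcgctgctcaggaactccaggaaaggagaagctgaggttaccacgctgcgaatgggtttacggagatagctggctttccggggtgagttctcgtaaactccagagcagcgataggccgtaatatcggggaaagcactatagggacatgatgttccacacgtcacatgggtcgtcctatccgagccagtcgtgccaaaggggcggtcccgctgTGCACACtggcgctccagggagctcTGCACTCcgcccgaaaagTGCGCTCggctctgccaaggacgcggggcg
Mt2, chr8:94172368-94172667, plus strand: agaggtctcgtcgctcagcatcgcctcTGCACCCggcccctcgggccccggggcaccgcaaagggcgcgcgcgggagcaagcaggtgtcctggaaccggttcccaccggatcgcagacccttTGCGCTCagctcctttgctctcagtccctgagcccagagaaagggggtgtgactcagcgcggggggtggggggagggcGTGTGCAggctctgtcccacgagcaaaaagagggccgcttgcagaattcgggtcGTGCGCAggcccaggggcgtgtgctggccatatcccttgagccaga
The full element of Sgk1 began 189 bases before that start and the E-box 246 bases before it. The half-site of Tsc22d3 began 185 bases before its start. The Mt1 window held 3 metal response cores and the Mt2 window 4, and 1.97% of all windows held 3 or more. Fkbp5 had an E-box beginning 169 bases before its start, as 7.15% of all windows have an E-box somewhere. Klf9 and Errfi1 windows held none of the searched letters, which says nothing about sites elsewhere in these genes.

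Nr3c1 encodes the receptor itself, and it was measured by 6 probe sets, 4 above the floor. The brightest, 1421867_at, had 9.36, 9.44, 9.20 and 9.30 in the 4 Cry DKO lines, against 9.21, 9.39, 9.41 and 9.13 in the WT lines. The genotypes overlapped fully, and the difference was 0.04 (SE 0.08, limma adjusted p = 0.798), with a 95% interval of -0.14 to 0.22. As a ratio of signals this interval runs from 0.909 to 1.17. The probe sets 1460303_at and 1421866_at had differences of 0.08 and 0.11, with interval upper ends of 0.28 and 0.34. The fourth, 1457635_s_at, averaged 7.43 ± 0.37 in Cry DKO and 7.06 ± 0.27 in WT lines (SD, n = 4 each), a difference of 0.37 that did not pass (SE 0.18, limma adjusted p = 0.263). Its highest value, 7.94, was that of Cry DKO replicate 4, which also had the highest value of 1460303_at, 9.26. Both dim probe sets of Nr3c1 overlapped between genotypes too: 1453860_s_at averaged 5.79 in Cry DKO and 5.89 in WT lines, and 1431378_at 3.31 in Cry DKO and 3.85 in WT lines.

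Tsc22d3 was the member that rose. Its gene lies on the X chromosome, and its probe set 1425281_a_at had 8.91, 8.80, 8.85 and 9.07 in the 4 Cry DKO lines, against 8.01, 8.05, 8.14 and 7.998 in the WT lines. Each Cry DKO line lay above each WT line, with a gap wider than the spread within either genotype. The difference was 0.86 (SE 0.08, limma adjusted p = 0.000316), a 1.81-fold rise with a 95% interval of 1.61-fold to 2.04-fold. Among 16347 probe sets it ranked 11 by p-value and 76 by size of increase.

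The brightest Tsc22d3 probe set, 1420772_a_at, had 8.91, 9.30, 9.18 and 9.42 in Cry DKO lines, against 8.53, 8.71, 8.81 and 8.70 in WT lines. The groups did not overlap here either, although Cry DKO replicate 1 came within 0.1 of WT replicate 3. The difference was 0.51 (SE 0.11, limma adjusted p = 0.0191), a 1.43-fold rise with an interval of 1.21-fold to 1.68-fold. Without WT replicate 1 it was 0.46 and its adjusted p by limma was 0.0555, which ended the call. The call of 1425281_a_at held in each of the 8 fits that left out a line.

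The remaining Tsc22d3 probe set above the floor did not pass. In 1425557_x_at, whose suffix marks probes that may also match other transcripts, Cry DKO lines had 6.26, 6.85, 6.73 and 6.62, against 6.21, 6.23, 6.51 and 6.64 in WT lines. The groups overlapped, and the difference was 0.22 (SE 0.16, limma adjusted p = 0.448). The dim 1444365_at averaged 4.24 in Cry DKO and 4.51 in WT lines. The probe sets of the gene thus gave unequal differences, and this was tested within arrays by subtracting 1 probe set from another. Signal of 1425281_a_at minus that of 1425557_x_at averaged 2.29 ± 0.31 in Cry DKO and 1.65 ± 0.21 in WT lines (SD, n = 4 each; exact two-sided permutation p = 0.0286, adjusted 0.0429 over 3 pairs). Signal of 1420772_a_at minus that of 1425281_a_at averaged 0.30 ± 0.21 in Cry DKO and 0.64 ± 0.09 in WT lines (SD, n = 4 each; exact two-sided permutation p = 0.0286, adjusted 0.0429). For 1420772_a_at minus 1425557_x_at the values were 2.59 ± 0.17 in Cry DKO and 2.29 ± 0.17 in WT lines (SD, n = 4 each; exact two-sided permutation p = 0.0857). Over the 70 assignments of 4 and 4 lines, 0.0286 is the smallest p possible. RefSeq gives Tsc22d3 3 starts in the windows above, and the files do not say which transcripts each probe set reads.

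Macrophage markers were higher in the same lines. Their mean was 9.67, 9.20, 8.70 and 8.96 in the 4 Cry DKO lines, against 8.53, 7.97, 8.29 and 8.48 in WT lines, so these groups did not overlap either. The line with the most marker signal, Cry DKO replicate 1, had the lowest value of 1420772_a_at among Cry DKO lines, 8.91, and the second-highest of 1425281_a_at, also 8.91. With the marker mean as a covariate, which itself differs between genotypes, the difference of 1425281_a_at was 0.89 (limma adjusted p = 0.0489) and that of 1420772_a_at 0.78 (limma adjusted p = 0.116). The mean of Y-linked probe sets was 2.66, 7.86, 7.94 and 2.96 in Cry DKO lines, against 2.86, 7.87, 7.90 and 7.74 in WT lines. With it as a covariate for the sex of the lines the differences were 0.84 and 0.55, and both passed (limma adjusted p = 0.00122 and 0.0233).

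**Figure D2:**
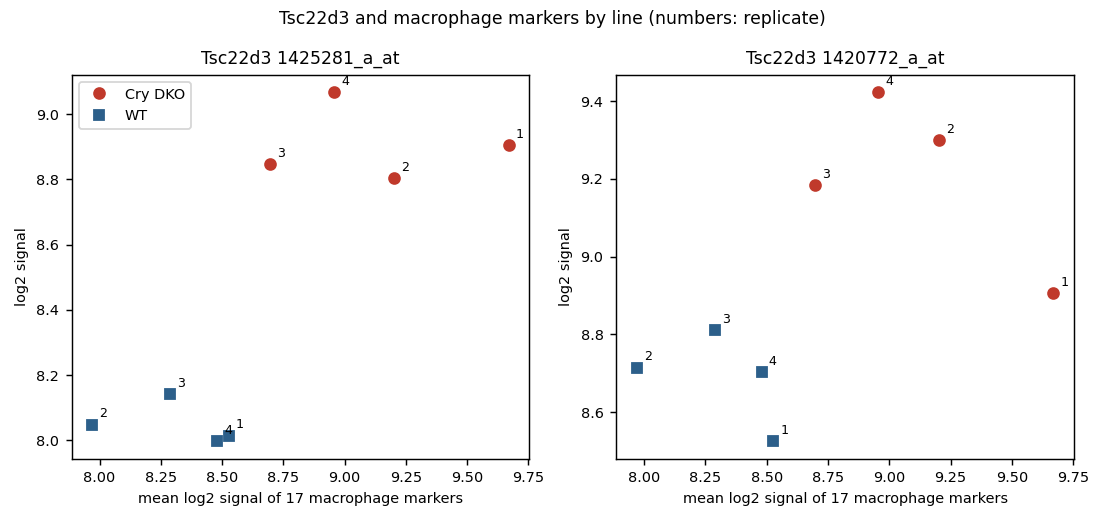
Log2 signal of the 2 called Tsc22d3 probe sets (vertical axes, each with its own range) against the mean log2 signal of 17 macrophage markers (horizontal axis), 1 point per line, numbered by replicate. The Cry DKO lines (circles) lie above and to the right of the WT lines (squares) in both panels, and within Cry DKO lines replicate 1 has the most marker signal, the lowest 1420772_a_at signal and the second-highest 1425281_a_at signal.

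Fkbp5, the feedback co-chaperone, did not differ detectably. Probe set 1416125_at had 8.72, 8.97, 8.58 and 8.51 in Cry DKO lines, against 8.68, 8.61, 8.70 and 8.77 in WT lines. The means nearly coincided, at 8.69 in both genotypes, while the Cry DKO lines spread more widely (SD 0.20 in Cry DKO and 0.07 in WT lines). The difference was 0.00 (SE 0.10, limma adjusted p = 0.996), with a 95% interval of -0.22 to 0.21. In the other probe set, 1448231_at, the difference was -0.06 (SE 0.11, limma adjusted p = 0.789).

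Sgk1, a kinase that acts on ion transport and survival and whose promoter window holds the full response element, was measured by 1 probe set. Cry DKO lines had 11.06, 11.07, 11.40 and 11.40, against 10.90, 10.65, 11.34 and 11.33 in WT lines. In each genotype replicates 3 and 4 lay above replicates 1 and 2, and the genotypes overlapped. The difference was 0.18 (SE 0.15, limma adjusted p = 0.508), with a 95% interval of -0.14 to 0.50, that is, a ratio of 0.905 to 1.42.

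Klf9, a Krüppel-like transcription factor induced by glucocorticoids and thyroid hormone, had 5 probe sets, 4 above the floor, and its differences were all negative without passing. The brightest, 1428288_at, had 10.14, 10.13, 10.38 and 9.92 in Cry DKO lines, against 10.15, 10.19, 10.32 and 10.58 in WT lines, a difference of -0.17 (SE 0.11, limma adjusted p = 0.389). In 1428289_at the genotypes did not overlap, with 9.44, 9.38, 9.42 and 9.05 in Cry DKO lines, against 9.48, 9.46, 9.46 and 9.59 in WT lines. Most of that separation came from replicate 4 of each genotype, and the difference was -0.18 (SE 0.09, limma adjusted p = 0.258). The probe sets 1456341_a_at and 1422264_s_at had differences of -0.10 and -0.26, and the dim 1436763_a_at one of -0.27 in the fit without a floor.

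Errfi1, a feedback inhibitor of the EGF receptor that glucocorticoids induce, did not differ detectably in either probe set. In 1416129_at Cry DKO lines had 9.73, 9.67, 9.77 and 9.83, against 9.61, 9.84, 9.48 and 9.71 in WT lines. The difference was 0.09 (SE 0.08, limma adjusted p = 0.544), and 1419816_s_at had one of 0.05 (SE 0.11, limma adjusted p = 0.846). Zbtb16, a zinc finger repressor that glucocorticoids raise strongly in several cell types, stayed under the floor in all lines. Its probe set 1439163_at had 3.93, 2.71, 3.88 and 3.47 in Cry DKO lines, against 3.71, 3.9999, 4.13 and 3.81 in WT lines, where dim signals are less precise.

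The metallothioneins Mt1 and Mt2 encode small zinc-binding proteins, are neighbours in the genome and respond to zinc as well as to glucocorticoids. Mt1 had 9.88, 9.89, 9.57 and 9.47 in Cry DKO lines, against 10.00, 9.82, 9.92 and 10.01 in WT lines. Cry DKO replicates 3 and 4 were low, replicates 1 and 2 lay within the WT range, and the difference of -0.24 did not pass (SE 0.10, limma adjusted p = 0.172). Mt2 had 8.76, 8.79, 8.80 and 8.93 in Cry DKO lines, against 8.9985, 9.01, 8.93 and 9.13 in WT lines. The highest Cry DKO line lay just under the lowest WT line, and the difference was -0.20 (SE 0.07, limma adjusted p = 0.115), with an unadjusted 95% interval of -0.35 to -0.05. Both genes thus had negative differences, but Cry DKO replicate 4 had the lowest Mt1 and the highest Mt2 value of its genotype. The suffix of the Mt1 probe set, 1422557_s_at, marks probes shared with other transcripts. Also carrying it are 1457635_s_at and 1453860_s_at of Nr3c1, 1422264_s_at of Klf9 and 1419816_s_at of Errfi1.

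**Figure D3:**
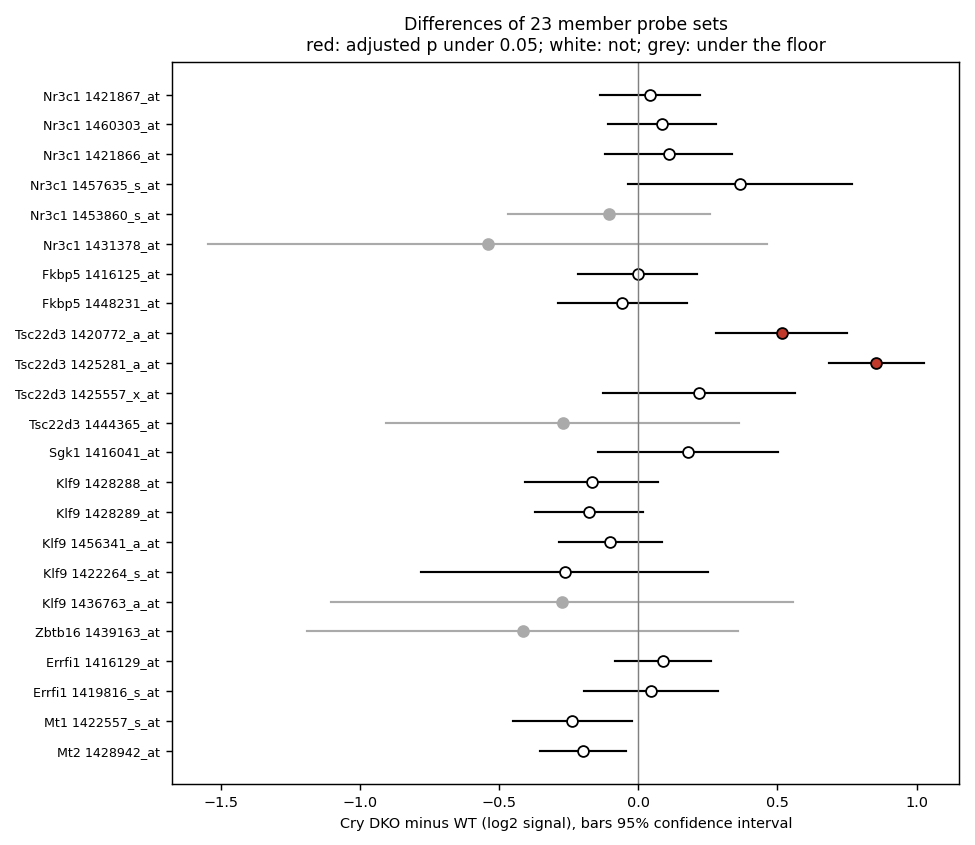
Difference in log2 signal, Cry DKO minus WT, of the 23 member probe sets (points) with unadjusted 95% confidence intervals (bars), from limma. Red points, both of Tsc22d3 (0.51 and 0.86), passed an adjusted p of 0.05, white points did not, and grey points lay under the floor and come from the fit without one.

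Correlations between members among lines of 1 genotype were mixed. Over deviations from the genotype mean in the 8 arrays, and among the 28 pairs of the 8 genes above the floor, Pearson's r ran from -0.59 (Nr3c1 with Mt2) to 0.87 (Mt1 with Fkbp5, Spearman's rho 0.95). Probe sets of 1 gene did not always follow each other: r ran from -0.26 to 0.56 among 4 of Nr3c1, from -0.19 to 0.68 among 3 of Tsc22d3 and from -0.22 to 0.82 among 4 of Klf9. It was -0.07 for the pair of Fkbp5 and 0.57 for that of Errfi1. A low r between genes therefore cannot show that these genes varied apart. The arrays share these deviations with any other difference between lines. By the same measure, the genes whose pattern was most like that of Nr3c1 (1421867_at) among 9514 were Sh3bp5l (r = 0.98), Pex19 (0.97) and Snx4 (0.97). Those most like Tsc22d3 (1420772_a_at) were Znrf3, Lrrcc1 and Fbxo42, each with r = 0.96. Such values are the highest of that many over 8 arrays and are given as a description.

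Other genes of the pathway were read from 7 lists, each gene by its brightest probe set. Over all 9515 genes read this way 4.33% were called higher and 3.45% lower, and the median difference was -0.01. An unadjusted p under 0.05 was found for 3 of 9 genes of receptor maturation and transport and 4 of 4 of hormone metabolism and efflux. It was found for 18 of 30 other induced targets and 3 of 11 kinases and partners of the member products. Over all tested probe sets the share was 23.2%, and no share per gene was computed. Of 9 tested genes of receptor maturation and transport 1 rose and none fell, with a median of 0.07. It was Fkbp4, the HSP90 co-chaperone that favours hormone binding, which averaged 9.69 ± 0.17 in Cry DKO and 9.36 ± 0.10 in WT lines (SD, n = 4 each), a difference of 0.33 (SE 0.09, limma adjusted p = 0.0465). That call held in 1 of the 8 fits that left out a line. It was lost without a floor, with a floor at the 20th percentile and without the intensity trend of limma. It was also lost with the macrophage marker mean as a covariate, where the difference was 0.37. For the co-chaperone gene Stip1 it was 0.20 (limma adjusted p = 0.0524). None of 10 coregulators passed in limma, with 1 at an unadjusted p under 0.05 and a median of -0.01, and Ncoa1 and Ep300 had differences of -0.25 and -0.26.

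Among 4 tested genes of hormone metabolism and efflux Stard4, a cholesterol carrier, rose by 0.39 (SE 0.08, limma adjusted p = 0.0175), and none fell, with a median of 0.10. That call held in 6 of the 8 fits that left out a line and was lost with the macrophage marker mean as a covariate, where the difference was 0.39. Leaving out 1 line gave 1 call higher in this list each time except without WT replicate 1, so not every such call was of Stard4. Without Cry DKO replicate 1 the list also had 1 call lower. Abcb1b, a drug pump that exports glucocorticoids, had 7.03, 7.27, 7.26 and 6.98 in Cry DKO lines, against 6.25, 5.81, 6.96 and 6.71 in WT lines. Its groups did not overlap, and the difference of 0.71 did not pass (SE 0.21, limma adjusted p = 0.0717). Hsd11b2, which inactivates glucocorticoids, lay under the floor, with 5.41, 5.61, 5.31 and 4.85 in Cry DKO lines, against 5.94, 6.33, 6.56 and 6.16 in WT lines. In the fit without a floor its difference was -0.95 (SE 0.20, limma adjusted p = 0.022), a result of dim signals singled out after its values were seen. H6pd, which supplies the cofactor of the enzyme encoded by Hsd11b1, did not pass at -0.31 (limma adjusted p = 0.0809).

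Other induced targets went both ways, with 3 of 30 called higher, 7 lower and a median of -0.04. The clock genes Per2 and Per1, which also respond to glucocorticoids, rose by 2.84 (SE 0.14, limma adjusted p = 2.6e-06) and 0.79 (SE 0.20, limma adjusted p = 0.0385), and Snai2, a transcriptional repressor, rose by 0.22. Per2 had 5.53 ± 0.29 in WT lines, under the floor. Cdkn1c, a CDK inhibitor, fell by 1.17 (SE 0.12, limma adjusted p = 0.000701), and Fbxo32, a ubiquitin ligase of muscle wasting, fell by 1.12 (SE 0.30, limma adjusted p = 0.0493). Crispld2, a secreted protein, fell by 0.72, and the CDK inhibitor Cdkn1a by 0.42. The phosphatase gene Dusp1, which dampens MAP kinases, fell by 0.33, the monoamine oxidase gene Maoa by 0.29 and Plin2, a lipid droplet coat protein, by 0.27. Of these 10 calls, those of Per2 and Cdkn1c held in all 8 fits that left out a line, and those of Fbxo32, Cdkn1a and Per1 in 1, 2 and 3 of them. Snai2, Dusp1 and Plin2 held in 4, and Maoa and Crispld2 in 5. With the macrophage marker mean as a covariate 1 of the 30 was called higher and none lower, but the differences of these 10 genes kept their signs. They were then 2.99 for Per2, 0.69 for Per1 and 0.25 for Snai2, -1.11 for Crispld2, -0.85 for Fbxo32, -0.81 for Cdkn1c and -0.47 for Cdkn1a, and -0.30 to -0.39 for Maoa, Dusp1 and Plin2.

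None of 9 tested genes that the receptor represses passed in limma, and the median was 0.03. An unadjusted p under 0.05 was found for 5 of them, against 23.2% of all tested probe sets, and 9 more genes lay under the floor. Leaving out 1 line gave calls in 3 of 8 fits: 1 lower without Cry DKO replicate 1, 1 higher without Cry DKO replicate 3, and 1 higher and 1 lower without Cry DKO replicate 4. Of those under the floor, the chemokine gene Cxcl5 had 5.998, 6.22, 6.04 and 5.56 in Cry DKO lines, against 3.66, 3.62, 3.77 and 5.46 in WT lines, and passed in the fit without a floor (difference 1.83, SE 0.37, limma adjusted p = 0.0189). It was singled out after its values were seen, and WT replicate 4 lay close to the Cry DKO lines. The interleukin gene Il11 and the metalloprotease gene Mmp3, also under the floor, were lower in Cry DKO lines without overlap. In that fit their differences of -0.67 and -1.14 did not pass (limma adjusted p = 0.108 and 0.0757). The others under the floor overlapped between genotypes. Among the 9 tested genes Mmp9 had the largest difference, -0.89 (limma adjusted p = 0.0924). It averaged 5.92 in Cry DKO and 6.82 in WT lines, so it passed the floor only through the WT lines. The differences were -0.36 for the chemokine gene Cxcl12 (limma adjusted p = 0.0727) and 0.27 for the adhesion molecule gene Vcam1 (limma adjusted p = 0.0883). None of 8 tested genes of the metallothionein and zinc list passed in limma, with 0 at an unadjusted p under 0.05 and a median of -0.03. No metallothionein was among these 8. The zinc transporter genes Slc39a10 and Slc30a5 had differences of 0.13 and 0.10, and Mtf1, the zinc sensor that drives metallothioneins, one of -0.18 (limma adjusted p = 0.397).

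Among 11 kinases and partners of the member products, 1 rose and 2 fell, with a median of -0.04. Both genes that fell are relatives of Tsc22d3. Tsc22d2 had 10.3 ± 0.03 in Cry DKO and 10.7 ± 0.09 in WT lines (SD, n = 4 each), a difference of -0.39 (SE 0.06, limma adjusted p = 0.00399). Tsc22d1 had 12.6 ± 0.05 in Cry DKO and 12.8 ± 0.04 in WT lines (SD, n = 4 each), a difference of -0.29 (SE 0.04, limma adjusted p = 0.0043). Tsc22d4 had a difference of -0.16 that did not pass (limma adjusted p = 0.316). Both calls held in all 8 fits that left out a line, but not with the macrophage marker mean as a covariate, where the differences were -0.39 and -0.31. Pdk1, which rose by 0.53 (SE 0.11, limma adjusted p = 0.0223), is a kinase of pyruvate dehydrogenase and no partner of SGK1, and its call held in 6 of the 8 fits but not with that covariate, where its difference was 0.74. Pdpk1, the kinase that activates SGK1, had a difference of 0.02.

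**Figure D4:**
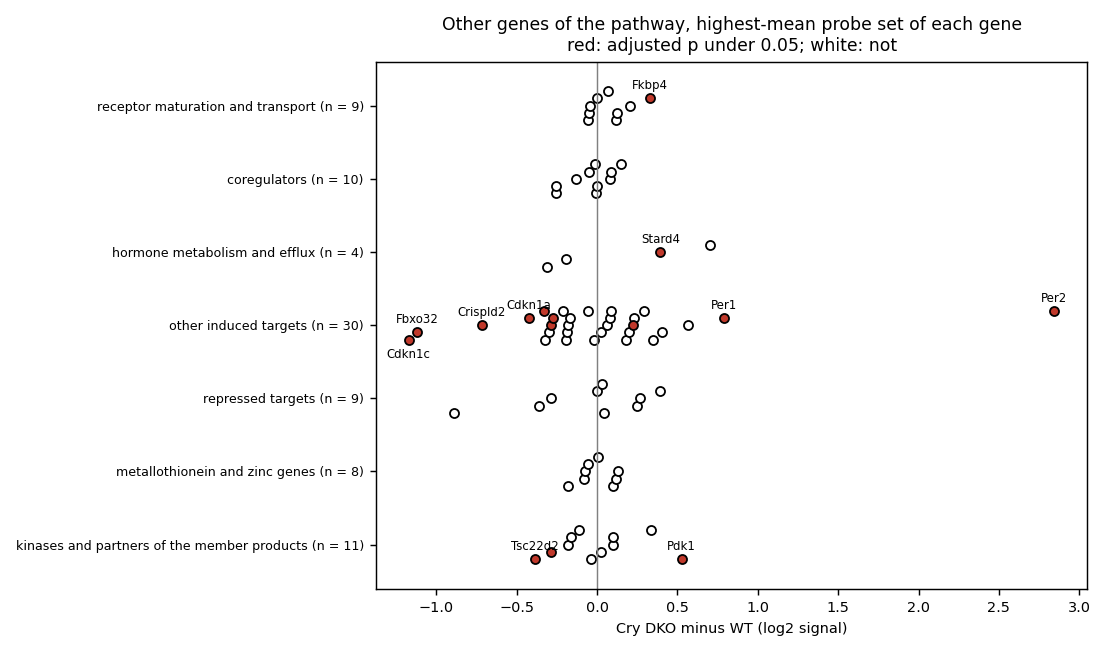
Difference in log2 signal, Cry DKO minus WT, of other pathway genes above the floor (1 point per gene, 7 lists with the number of genes in brackets). Red points passed an adjusted p of 0.05, and names are given for the larger of these, from -1.17 for Cdkn1c to 2.84 for Per2. Vertical position within a list only separates points.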

How the data were processed

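The deposited table holds log2 signals per probe set and array, made by the authors with GCOS, the Affymetrix array software, per the submitters' processing notes. The base of the logarithm is inferred from the range of the deposited values (0.0675 to 14.3), so every fold rests on it. The methods of summarising probes, normalising arrays and choosing the listed probe sets are not stated in the labels. Array medians nearly coincide, so values were used as deposited, and a change of all RNA alike could not be seen.

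After leaving out 61 control probe sets, 4949 without a name here and 658 of several genes, 24838 of 1 gene remained. Gene identifiers of 24757 were found in RefSeq (GRCm38.p6) and used for symbols. No detection calls were used.

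Genotypes came from the sample titles and were compared in limma 3.58.1 (R 4.3.3), using an intensity trend and no covariate. In 3 simulated runs of this comparison over 16347 probe sets, a call was made for 13.4% of probe sets with a log2 change of 0.25, 57.2% with 0.5, 90.4% with 1 and 0.0475% with none. These runs changed only a small part of the probe sets, and far more passed in the real table, so the adjusted threshold was stricter there than here. Their noise was drawn independently for each probe set, without variation that lines share. The rates therefore describe the simulated setting and not these data. Alternatives were a replicate block, quantile normalisation, other floors, 1 probe set per gene, other empirical Bayes settings, array weights, 2 covariates and each line left out. Members and lists were chosen with earlier results of these data known. Named are all member probe sets, Cry1 and Cry2, called list genes (or the 2 of smallest p where none was called) and the 3 genes most like Nr3c1 and Tsc22d3. Trem2, Pdgfra, Dcn, Cxcl5, Il11, Mmp3, Mmp9, Krt8, Stip1, Abcb1b, Hsd11b2, H6pd, Mtf1, Tsc22d4 and Pdpk1 were named after their values were seen. Markers of endothelial, fat and epithelial cells were also read: 0 of 4, 1 of 2 and 2 of 4 lay above the floor, and none of these 3 tested markers passed. In the fit without a floor the epithelial marker Krt8 passed, with means of 5.12 in Cry DKO and 3.84 in WT lines (difference 1.29, limma adjusted p = 0.0364).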

Additional observations from a re-analysis of the deposited data

Results flagged for a closer look

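In 3 of the 46 groups of 4 lines, 1 line stood apart from the other lines of its genotype by Dixon's criterion, which flags about 1 in 20 such groups by chance. All were of Klf9 and all were replicate 4. In the probe set 1428289_at Cry DKO replicate 4 had 9.05, against 9.38 to 9.44 in the other Cry DKO lines, and WT replicate 4 had 9.59, against 9.46 to 9.48 in the other WT lines. In the dim probe set 1436763_a_at Cry DKO replicate 4 had 4.21, against 5.52 to 5.78.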

How the results depend on the processing

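Of the 2 called member probe sets, both of Tsc22d3, 1425281_a_at passed in each alternative that included it (the fit with 1 probe set per gene left it out). The count of members called higher was 1 with the macrophage mean as a covariate, where the difference of 1420772_a_at was 0.78 without passing, and 1 with 1 probe set per gene, where fewer probe sets are tested. It ranged from 1 to 2 when each line was left out, and the difference of 1420772_a_at from 0.44 to 0.61. None was called lower in any alternative. The comparison did not pair lines by replicate number, since the lines were given as independent. Deviations of same-numbered lines correlated at 0.28, 0.11, 0.20 and 0.02, and those of differently numbered lines at -0.18 to 0.13. For 6 of 8 lines the best correlation was with their own number, so lines of 1 number may share a factor, which was not tested. With the replicate block 1422 probe sets of the table passed and the members called were 2. Calls higher and lower under that block were 1 and 1 of the repressed targets and 5 and 7 of the other induced targets. They were 15 and 0 of the macrophage markers and 0 and 1 of the fibroblast markers. Macrophage calls numbered 9 without a floor, 5 with the Y-linked mean and 4 without the intensity trend. Other induced targets had 1 call higher and 3 lower without that trend, and repressed targets 1 lower with array weights. The count over the table, 1113, was 19 with the macrophage mean and 684 with the Y-linked mean as a covariate, and 481 to 862 without 1 line. Signs that turned were of small differences that passed in no fit. For Fkbp5 1416125_at the difference was 0.023 with array weights, 0.020 with the Y-linked mean and -0.094 to 0.060 without 1 line. For Fkbp5 1448231_at it was 0.029 with the macrophage mean and -0.14 to 0.0053 without 1 line. Leaving out 1 line gave -0.032 to 0.124 for Errfi1 1419816_s_at and -0.0090 to 0.086 for Nr3c1 1421867_at. Causes of these shifts were not tested. Dim signals limit the 5 probe sets under the floor, Zbtb16 above all.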
